A study of Mus musculus with 12 samples.

Results

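The comparison examined here set group 3 innate lymphoid cells (ILC3s) of the intraepithelial layer (IEL) of the small intestine against ILC3s of the lamina propria (LP), in mice that had been nursed on milk rich in palmitic acid (PA milk). It covered every gene whose FPKM value was 1 or more in at least 3 of the 6 PA milk libraries, which 9555 of the 23284 genes in the table were. FPKM, fragments per length of transcript and per mapped fragments of the library, is a level corrected for transcript length and library size. Of these genes, 2481 reached 1 FPKM in all 6 libraries and 1974 in exactly 3. The gene just inside the filter was Arhgap10, with a third-highest value of 1.00377 FPKM, and the gene just outside was Trp53rk, with 0.999928 FPKM.

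All mice were offspring of the HR-1 hairless strain and were 18 weeks old. PA milk mice were born to mothers on normal chow and were nursed, after a swap of litters, by females on chow supplemented with palmitic acid, a long-chain saturated fatty acid, and they returned to normal food at weaning. The study places the start of the supplement shortly before delivery in one passage and right after it in another. Females nursing the normal diet (ND) mice received the powdered chow without the supplement. There were 3 libraries each of PA IEL, PA LP, ND IEL and ND LP. The ND libraries enter the fit of the spread and are used below to read the PA milk genes in separate samples. The labels do not say whether a library came from 1 mouse or from a pool, so the p-values measure the spread between libraries only. IEL cells were shaken off the tissue with EDTA and DTT, and LP cells were then freed from what remained by collagenase and DNase. Layer and isolation procedure therefore cannot be told apart in any comparison below. ILC3s of both layers were sorted as lineage-negative cells carrying Thy1, CD25 and Nrp1, with CD4 as a further marker in one description of the gate and CD45 in the other. The labels also do not say whether IEL and LP libraries with the same number came from the same mice.

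ILC3s are tissue-resident lymphocytes without antigen receptors that, after IL-1 and IL-23, secrete IL-17A and IL-22. Intraepithelial lymphocytes sit between the absorptive enterocytes, which take up dietary fat and export it as chylomicrons. The lamina propria beneath holds blood and lymph vessels, fibroblasts, plasma cells and macrophages, and borders on the crypts whose bases carry Paneth cells.

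The 6 PA milk libraries held 9511139 to 11372028 scaled counts, and replicate 2 of both layers stood apart from the rest. PA IEL replicate 2 had 4390 genes at 1 FPKM or more and PA LP replicate 2 had 5637, against 8406 to 11378 in the other 4 PA libraries and 7863 to 11282 in ND. Spearman correlations across genes were 0.453 to 0.731 among PA IEL libraries and 0.454 to 0.695 among PA LP libraries, beside 0.426 to 0.691 between the layers and 0.722 to 0.909 within the ND groups. Markers of the gate and of ILC3s, taken for their role, were checked in every library. In IEL, Ptprc, the pan-leukocyte antigen CD45, measured 61.0, 0.0433 and 22.0 FPKM, and in LP 22.2, 54.7 and 64.7 FPKM. Values of Il7r, the IL-7 receptor chain carried by ILCs, were 167, 0.0242 and 124 FPKM in IEL and 30.9, 0.0304 and 25.4 FPKM in LP. Il23r, the receptor through which IL-23 acts on ILC3s, reached 34.7, 0 and 13.7 FPKM in the IEL libraries, against 0, 0.040 and 2.69 FPKM in the LP libraries. Il7r was thus near 0 in both replicate 2 libraries, Il23r was near 0 in these and in PA LP replicate 1, and Ptprc was near 0 in PA IEL replicate 2 alone. Thy1 did not pass 3.77 FPKM in any PA library and was listed at 0 in PA IEL replicate 2 and in PA LP replicates 1 and 2. Nrp1 and Il2ra, which encodes CD25, were near 0 in both replicate 2 libraries, and Il2ra also in PA LP replicate 1. Cd4 went the other way, at 17.5, 26.1 and 13.7 FPKM in IEL and 0, 55.8 and 15.7 FPKM in LP. The summed level of genes common to leukocytes was 4234, 6606 and 2423 FPKM in IEL and 2848, 4510 and 4310.5 FPKM in LP. Cd4 and this sum were thus highest in replicate 2 of each layer. List medians that moved by over 1.5 times or changed sign without replicate 2 of both layers are given both ways below.

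**Figure D1:**
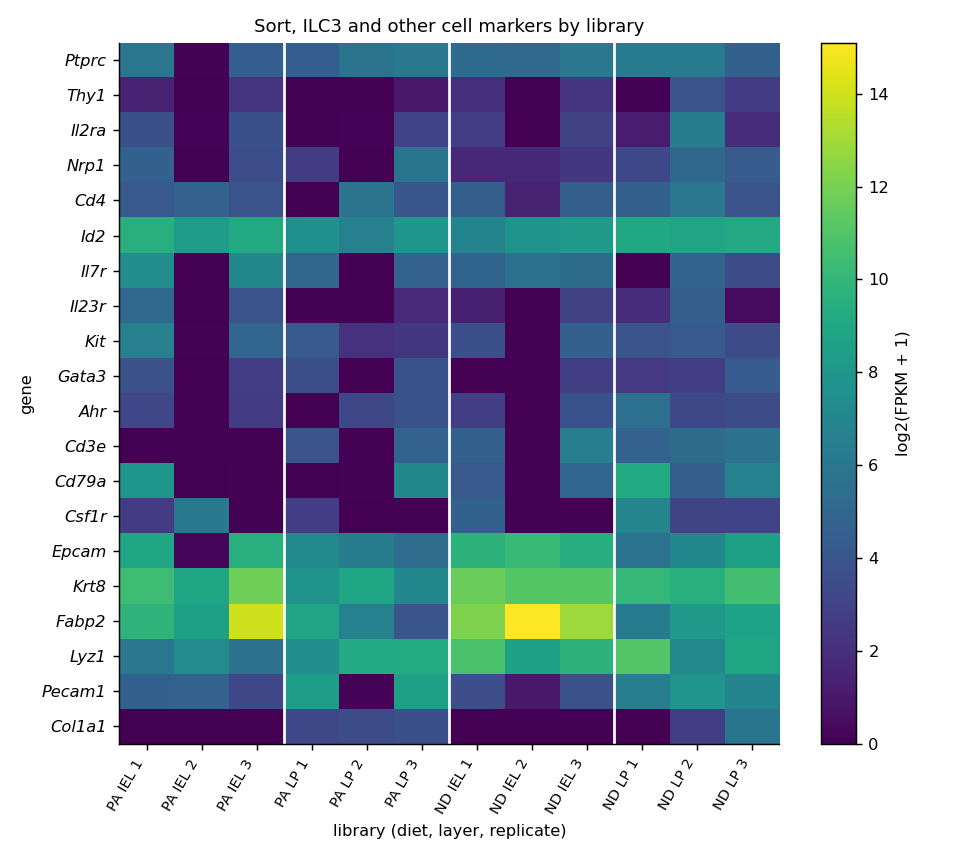
Level of 20 markers in each of the 12 libraries as log2(FPKM + 1), with libraries on the horizontal axis in the order PA IEL, PA LP, ND IEL and ND LP and genes on the vertical axis. Il7r, Il23r and Kit are dark in PA IEL replicate 2, while the epithelial keratin Krt8 is above 120 FPKM in each of the 6 PA libraries.

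Of the 9555 genes, limma on log2(FPKM + 1) called 24 at a Benjamini-Hochberg adjusted p under 0.05, 15 higher in IEL and 9 higher in LP. These are 0.157% and 0.0942% of the genes tested. At an unadjusted p under 0.05 there were 957 genes, 536 higher in IEL and 421 higher in LP. The median difference over all genes, IEL minus LP, was -0.01 on the log2 scale, with a median standard error (SE) of 1.25. A coarser description asks whether the 3 libraries of one layer all lie above the 3 of the other. This held for 481 genes in favour of IEL (5.03%) and 478 in favour of LP (5%), among them 57 and 60 that had passed the filter through that layer alone and so had to differ in this way. All 24 called genes were separated in this sense, and 12 of them, 7 higher in IEL and 5 higher in LP, had passed through 1 layer alone. The 7 were Gm5480, Cdhr2, Ms4a10, Fbp1, Slc2a5, Prss30 and Btnl6. The 5 were Iigp1, Rhoj, Mmp2, Mlf1 and Postn. For these 12 the separation was fixed by the filter, and the fitted difference depends on the value of 1 added before the logarithm.

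**Figure D2:**
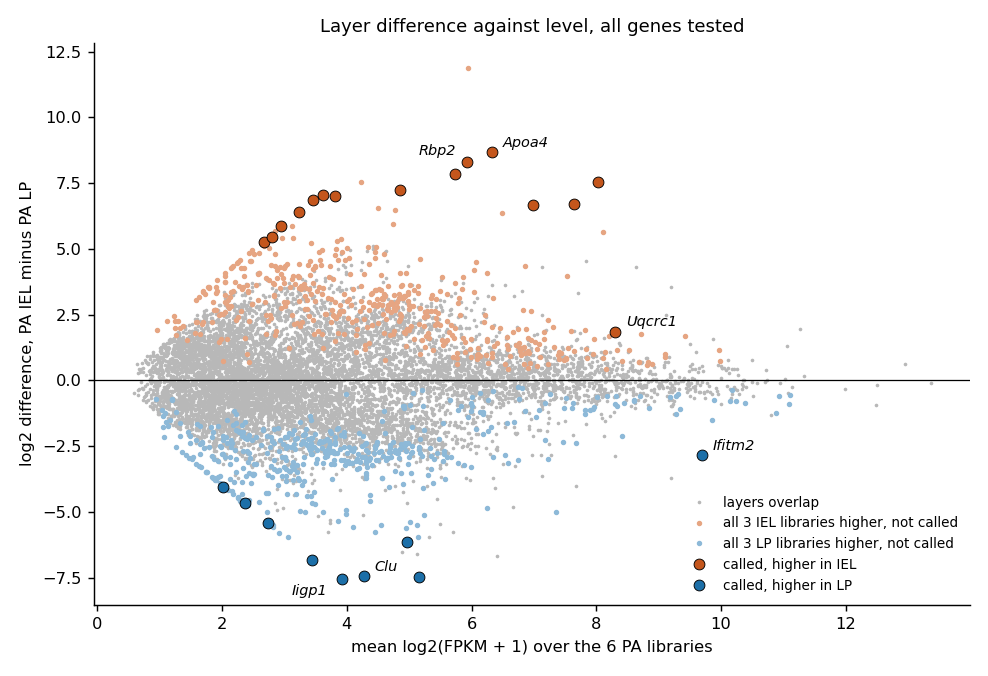
Each point is 1 of the 9555 genes, with its mean log2(FPKM + 1) over the 6 PA libraries on the horizontal axis and its log2 difference, PA IEL minus PA LP, on the vertical axis. The 24 called genes are ringed. Most lie beyond 4 on the log2 scale, and Uqcrc1 and Ifitm2 are the called genes with smaller differences.

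The count depended on which libraries were kept. It was 5 without PA IEL replicate 3, 1 without PA LP replicate 1, 71 without PA LP replicate 2, 52 without PA LP replicate 3 and 122 without replicate 2 of both layers, of which 22 were among the 24. With libraries scaled on the upper quartile the split was 10 higher in IEL and 11 higher in LP. The direction of each of the 24 genes was that of the main fit in every alternative that tested it.

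Of the 15 genes higher in IEL, 8 were on lists of epithelial genes, with 4 on the list of enterocyte lipid absorption, 2 on that of brush border digestive genes, and 1 each on those of pan-epithelial and goblet cell genes. In that order, these lists held 20, 14, 27 and 12 of the 9555 genes tested. Apolipoproteins and the retinol carrier of the enterocyte had the largest differences among the genes called higher in IEL. The IEL libraries gave 702, 994 and 6189.9 FPKM of Apoa4, an apolipoprotein of chylomicrons, and the LP libraries 0.854, 9.57 and 2.19 FPKM. Apoa1, the main protein of high-density lipoprotein, was at 2462, 1575 and 11729 FPKM in IEL replicates 1, 2 and 3 and at 3.11, 160.4 and 9.41 FPKM in LP. In IEL, Apoc2, the cofactor of lipoprotein lipase, measured 319.6, 568 and 2880.4 FPKM, and in LP 0.552, 18.8 and 0.432 FPKM. In each of these genes PA IEL replicate 3 was the highest library, and no LP library reached the lowest IEL library. The log2 difference of Apoa4 was 8.68 ± 1.31 (SE, n = 3 per layer), with an adjusted p of 0.0172 by limma. Apoa1 had a log2 difference of 7.55 ± 1.13 (SE) and Apoc2 a log2 difference of 7.84 ± 1.23 (SE), both at an adjusted p of 0.0172 by limma. Values of Rbp2, which carries retinol inside enterocytes, were 603, 303 and 6810.1 FPKM in IEL and 0.671, 1.18 and 10.05 FPKM in LP. All IEL values of Rbp2 were far above the highest LP value, with a log2 difference of 8.30 ± 1.11 (SE) (adjusted p = 0.0107, limma).

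Apoa1, Apoc3 and Apoa4 lie next to each other on chromosome 9 (GRCm38, GENCODE vM21), Apoa1 at chr9:46228580-46230466 and Apoa4 at chr9:46240696-46243459 on the plus strand and Apoc3 at chr9:46232933-46235636 between them on the minus strand. Apoc3, an inhibitor of triglyceride clearance, reached 402, 620.1 and 2192 FPKM in the IEL libraries, against 1.23, 273 and 0.579 FPKM in the LP libraries. Its layers did not overlap either, but PA LP replicate 2 came close to PA IEL replicate 1, and a log2 difference of 6.37 ± 1.62 (SE) did not pass the threshold (adjusted p = 0.15, limma). The same LP library also held the highest LP values of Apoa1, Apoc2 and Apoa4.

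Over the list of enterocyte lipid absorption genes, 20 of the 22 listed genes were tested, 4 were called higher in IEL and 0 higher in LP, and 10 were separated toward IEL and 1 toward LP. Of all genes tested, 0.157% were called higher in IEL and 0.0942% higher in LP. Separated toward IEL were 5.03% and toward LP 5%, and these shares stand beside every list below. The median difference was 3.74 on the log2 scale, against -0.01 over all genes tested. Mogat2 and Apob were the 2 members that had passed the filter through IEL alone and so had to be separated. Besides the 4 called genes, Apoc3 and Apob, the members whose layers did not overlap were Fabp1, Mogat2, Acsl5 and Abcg5. Levels of Fabp1, the liver-type fatty acid carrier, came to 670.3, 898 and 12094 FPKM in IEL and to 109.7, 231 and 1.29 FPKM in LP. Mogat2, which rebuilds triglyceride from absorbed monoglyceride, was at 33.7, 16.2 and 486 FPKM in IEL replicates 1, 2 and 3 and at 0.0995, 0.0583 and 0.292 FPKM in LP. In IEL, Acsl5, an acyl-CoA synthetase that activates long-chain fatty acids, measured 78.0, 415 and 691 FPKM, and in LP 34.9, 51.4 and 47.1 FPKM. None of these passed the test, with adjusted p-values by limma of 0.34 for Fabp1, 0.16 for Mogat2 and 0.19 for Acsl5. Scarb1 was the member separated toward LP. Values of Scarb1, the scavenger receptor that takes up cholesterol from high-density lipoprotein, were 7.49, 0.0666 and 19.9 FPKM in IEL and 43.9, 28.9 and 92.8 FPKM in LP. The intestinal fatty acid carrier Fabp2 was higher in PA IEL replicate 3 than in any other PA library, at 902, 385 and 16303 FPKM in IEL and 443, 98.7 and 14.9 FPKM in LP, and its layers overlapped.

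The summed level of the list was 6071 to 61630 FPKM in the IEL libraries and 773 to 1201 FPKM in the LP libraries. Enterocyte transcripts were therefore measured in all 6 libraries of a gate meant for lymphocytes, and their part in the other differences was not tested. In bulk RNA, more enterocytes in a sort and more of these transcripts per sorted cell cannot be told apart.

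Enzymes and transporters of the brush border, the microvillar surface on which sugars and peptides are digested and absorbed, showed the same side. Of 23 listed genes 14 were tested, 4 of which had passed the filter through IEL alone. There were 2 called higher in IEL and 0 higher in LP, 10 were separated toward IEL and 0 toward LP, and the median difference was 3.54. Alpi, the intestinal alkaline phosphatase, reached 116, 272 and 1416 FPKM in the IEL libraries, against 0.475, 0.257 and 6.01 FPKM in the LP libraries. For Slc2a5, the fructose transporter GLUT5, the 3 IEL libraries held 15.4, 84.5 and 141 FPKM and the LP libraries 0, 0.0316 and 0 FPKM. Both genes had higher values in every IEL library than in any LP library, with a log2 difference of 7.24 ± 1.36 (SE) for Alpi (adjusted p = 0.0446, limma) and a log2 difference of 5.85 ± 1.12 (SE) for Slc2a5 (adjusted p = 0.0449, limma). Treh, the trehalase of the microvilli, was at 9.70, 107 and 194 FPKM in IEL replicates 1, 2 and 3 and at 0.0849, 0 and 0 FPKM in LP. In IEL, Lct, lactase, measured 11.9, 36.1 and 54.6 FPKM, and in LP 0.0131, 0.214 and 0.0307 FPKM. Values of Slc5a1, the sodium-coupled glucose transporter, were 26.2, 5.96 and 537 FPKM in IEL and 0.104, 0.122 and 0.0736 FPKM in LP. These 3 genes and Slc2a5 were the 4 that had passed the filter through IEL alone and so had to be separated. The adjusted p-values of Treh, Lct and Slc5a1 by limma were 0.11, 0.13 and 0.19. Anpep, aminopeptidase N, reached 19.7, 6.99 and 263 FPKM in the IEL libraries, against 2.18, 0.454 and 5.80 FPKM in the LP libraries. The IEL libraries gave 12.9, 90.2 and 87.6 FPKM of Dpp4, a dipeptidyl peptidase of the microvilli, and the LP libraries 6.44, 10.3 and 12.8 FPKM. Neither gene's layers overlapped, at an adjusted p of 0.38 for Anpep and 0.49 for Dpp4 by limma. Alpi was called in 4 of 16 alternatives and Slc2a5 in 5 of 16.

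The upstream sequence of Alpi is shown because it is the called brush border gene whose promoter window held a searched element of an enterocyte factor. It is the 250 bases before the RefSeq start site at chr1:87101607-87101856 on the minus strand (GRCm38.p6), written 5′ to 3′ with the match in capitals.
Alpi: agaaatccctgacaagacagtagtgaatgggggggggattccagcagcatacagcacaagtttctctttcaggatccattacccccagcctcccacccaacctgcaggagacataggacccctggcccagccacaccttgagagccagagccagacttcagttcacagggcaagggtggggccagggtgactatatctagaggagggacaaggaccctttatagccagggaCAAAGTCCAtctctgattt
The capitals mark CAAAGTCCA, a sequence of the kind bound by HNF4, the nuclear receptor of enterocytes, 19 to 11 bases before the start. Both strands were searched, and 0.381% of 27025 promoter windows of this length held the element. Among the 14 genes called higher in IEL that had a window, Alpi was the 1 with a match. The promoter genes were chosen with their values known, and a match of letters is a description and not a binding site.

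Apart from Uqcrc1, the other 8 genes called higher in IEL were on other epithelial lists or on none. Cdhr2, a protocadherin that links microvilli tip to tip, was at 37.2, 184 and 231 FPKM in IEL replicates 1, 2 and 3 and at 0.0199, 0.0465 and 0.0233 FPKM in LP. In IEL, Gm5480, which the RefSeq annotation names Smim22, a small membrane protein gene at chr16:5007288-5008309, measured 90.5, 130.4 and 338 FPKM, and in LP 0, 0 and 0.867 FPKM. The LP libraries of both were below 1 FPKM, so both had passed the filter through IEL alone and had to be separated. Gm5480 had the smallest adjusted p of all genes, 0.0054 by limma. Its log2 difference of 7.02 ± 0.84 (SE) depends on the value of 1 added before the logarithm. Values of Ms4a10, a membrane-spanning protein, were 60.004, 128 and 357 FPKM in IEL and 0.0972, 0.114 and 0 FPKM in LP. Fbp1, the fructose bisphosphatase of gluconeogenesis, reached 19.4, 109 and 293 FPKM in the IEL libraries, against 0, 0 and 0.0746 FPKM in the LP libraries. Neither gene reached 0.2 FPKM in an LP library, so both had also passed the filter through IEL alone. Levels of Prap1, a secreted protein rich in proline, came to 668, 1939 and 6432 FPKM in IEL and to 26.3, 144 and 0.883 FPKM in LP. Guca2b, uroguanylin, a gut peptide that regulates salt secretion, was at 735, 749 and 3854 FPKM in IEL replicates 1, 2 and 3 and at 0.993, 136 and 6.30 FPKM in LP. In the last pair PA LP replicate 2 had the highest LP value, above 130 FPKM, and the IEL libraries remained higher throughout. In IEL, Btnl6, a butyrophilin-like gene of the gut epithelium, measured 19.5, 56.5 and 50.9 FPKM, and in LP 0.0551, 0 and 0.0647 FPKM. Values of Prss30, a serine protease of the epithelium, were 27.8, 75.5 and 43.6 FPKM in IEL and 0.0617, 0.0723 and 0 FPKM in LP. Btnl6 and Prss30 had likewise passed the filter through IEL alone. Differences in this group ran from 5.24 for Btnl6 to 7.05 for Ms4a10, with adjusted p-values by limma up to 0.0448.

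Uqcrc1 was the called gene with the tightest replicates. Uqcrc1, a core subunit of respiratory complex III at chr9:108936633-108949623, reached 593, 579 and 631 FPKM in the IEL libraries, against 156, 177 and 164 FPKM in the LP libraries. The mean was 601 ± 27.1 FPKM in IEL and 166 ± 10.5 FPKM in LP (SD, n = 3), a 3.63-fold difference of means, with a log2 difference of 1.86 ± 0.34 (SE) (adjusted p = 0.0412, limma). All 6 libraries, replicate 2 included, fell close to their group mean.

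Pan-epithelial genes, listed as markers of gut epithelial cells of any type, were less uniform, and the list also holds Cdhr2 of the microvilli. Of 27 tested, 1 was called, Cdhr2, 4 were separated toward IEL and 0 toward LP, and the median difference was 1.82, or 3.13 without replicate 2 of both layers. Cdhr2 had passed the filter through IEL alone and so had to be separated. Without replicate 2, 21 of the 27 had both IEL libraries above both LP libraries, against 21.6% of all genes. For Epcam, the adhesion molecule by which gut epithelium is recognised, the 3 IEL libraries held 463, 0.196 and 742 FPKM and the LP libraries 151, 80.7 and 41.9 FPKM. Krt19, a keratin of the epithelium, was at 1260.2, 0.312 and 1827 FPKM in IEL replicates 1, 2 and 3 and at 261, 248 and 51.4 FPKM in LP. In IEL, Cldn3, a tight junction protein, measured 140.4, 274 and 757 FPKM, and in LP 47.7, 92.2 and 25.6 FPKM. Epcam and Krt19 were near 0 in PA IEL replicate 2 and high in the other IEL libraries, whereas Cldn3 was higher in every IEL library than in LP. The summed level of the list was 1951 to 16819 FPKM in IEL and 949.9 to 2586 FPKM in LP, and the defining marker Epcam was at 0.196 FPKM in PA IEL replicate 2.

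**Figure D3:**
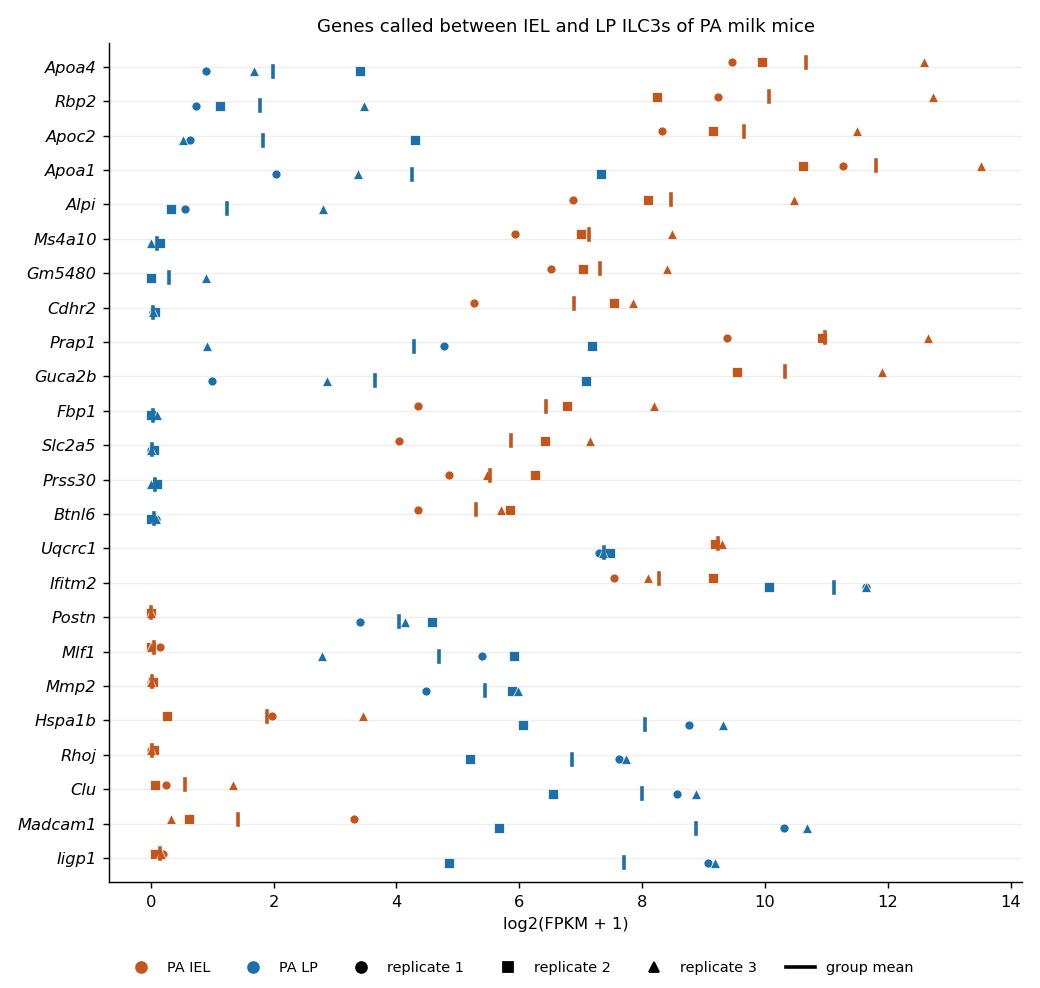
Level of the 24 called genes in the 6 PA libraries as log2(FPKM + 1), IEL in orange and LP in blue, with a symbol for each replicate and a bar at the group mean. The layers do not overlap for any gene, and the spread within a layer is wide for most except Uqcrc1.

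Of the 9 genes higher in LP, 3 were on a list, Madcam1 on that of endothelial genes, Iigp1 on that of interferon response genes and Hspa1b on that of immediate early and heat shock genes, and the other 6 were on none. Values of Madcam1, the addressin of gut venules that binds the integrin of gut-homing lymphocytes, were 8.86, 0.540 and 0.260 FPKM in IEL and 1269, 49.6 and 1641 FPKM in LP. Rhoj, a small GTPase of endothelial cells, reached 0, 0.0338 and 0 FPKM in the IEL libraries, against 197, 35.8 and 213 FPKM in the LP libraries. The IEL libraries gave 0.192, 0.0455 and 1.53 FPKM of Clu, the secreted chaperone clusterin, and the LP libraries 379, 92.6 and 471 FPKM. For each of these genes replicate 2 was the lowest LP library and still above every IEL library. Rhoj had passed the filter through LP alone and so had to be separated. Madcam1 had a log2 difference of -7.47 ± 1.30 (SE) (adjusted p = 0.0298, limma). Rhoj had a log2 difference of -6.84 ± 1.07 (SE) and Clu a log2 difference of -7.45 ± 1.10 (SE), with an adjusted p of 0.0172 for both by limma. Of 18 endothelial genes 7 were tested, 0 were called higher in IEL and 1 higher in LP, 1 was separated toward LP, and the median difference was -3.21. All 7 had both LP libraries above both IEL libraries once replicate 2 was left out, against 20.3% of all genes. Plvap, the diaphragm protein of fenestrated vessels, was at 11.1, 0.926 and 0.960 FPKM in IEL replicates 1, 2 and 3 and at 4504, 1.01 and 4458 FPKM in LP. In IEL, Pecam1, CD31 of endothelium, measured 24.5, 26.0 and 8.23 FPKM, and in LP 335, 0.120 and 383 FPKM. Values of Cldn5, the claudin of endothelial tight junctions, were 0.0846, 0.361 and 0.131 FPKM in IEL and 382, 0.0755 and 499 FPKM in LP. All were highest in PA LP replicates 1 and 3, whereas in PA LP replicate 2 they were no higher than in IEL or nearly so. Summed endothelial levels were 51.7 to 84.3 FPKM in IEL and 51.1 to 8979 FPKM in LP, and what vessel transcripts contributed to the LP side was not tested.

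Postn and Mmp2, called higher in LP, were on no list. Both had passed the filter through LP alone and so had to be separated. Postn, periostin of fibroblasts, was listed at 0 in all 3 IEL libraries and was at 9.62, 23.0 and 16.6 FPKM in LP. Mmp2, a gelatinase that degrades basement membrane collagen, reached 0, 0.0257 and 0 FPKM in the IEL libraries, against 21.4, 58.2 and 61.8 FPKM in the LP libraries. No library of one layer came near the other layer in either gene, and the fitted difference of Postn depends on the value added before taking logs, so no fold is given. The log2 difference of Mmp2 was -5.44 ± 1.04 (SE, n = 3 per layer) (adjusted p = 0.0448, limma). Levels of Col1a1, the collagen that defines fibroblasts, came to 0, 0 and 0.0176 FPKM in IEL and to 8.74, 10.5 and 12.1 FPKM in LP. Vim, vimentin of mesenchymal cells and leukocytes, was at 22.8, 93.7 and 17.5 FPKM in IEL replicates 1, 2 and 3 and at 260.4, 116 and 501 FPKM in LP. The layers did not overlap for either, which for Col1a1 was fixed by its passing the filter through LP alone. Neither passed the test (adjusted p = 0.30 for Col1a1 and 0.19 for Vim, limma). The fibroblast and muscle list had 3 of 22 genes tested, 0 called, 2 separated toward LP, 1 having passed through LP alone, and a median of -3.50, and its sum was 19.1 to 95.0 FPKM in IEL and 127.0 to 2999 FPKM in LP. In IEL, Mlf1, a gene first described in myeloid leukaemia, measured 0.113, 0 and 0 FPKM, and in LP 40.8, 59.4 and 5.94 FPKM. Mlf1 had also passed the filter through LP alone. It was called as well, with a log2 difference of -4.65 ± 0.80 (SE) (adjusted p = 0.0298, limma).

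Heat shock genes, which encode chaperones that refold proteins, gave 1 call, Hspa1b, higher in LP. Values of Hspa1b, an inducible chaperone of the HSP70 family, were 2.91, 0.196 and 10.01 FPKM in IEL and 434, 65.6 and 635 FPKM in LP. Hspa1a, its neighbouring copy, reached 10.3, 0.112 and 8.96 FPKM in the IEL libraries, against 289, 47.8 and 651 FPKM in the LP libraries. For Hspa8, the constitutive member, the 3 IEL libraries held 907, 1940.1 and 1039.8 FPKM and the LP libraries 2844, 2763 and 3029.7 FPKM. Every LP library lay above every IEL library in all 3 genes. Hspa1b was called, with a log2 difference of -6.15 ± 0.96 (SE) (adjusted p = 0.0172, limma), and the others were not. Hspa1a had a log2 difference of -5.39 ± 1.27 (SE) and Hspa8 a log2 difference of -1.23 ± 0.31 (SE) (adjusted p = 0.14 and 0.15, limma).

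Hspa1b and Hspa1a are near-identical copies on chromosome 17, and the sequences before their starts are shown because reads from such copies cannot be told apart with certainty. The windows are chr17:34959239-34959488 for Hspa1b and chr17:34972157-34972406 for Hspa1a, both on the minus strand and from RefSeq (GRCm38.p6).
Hspa1b: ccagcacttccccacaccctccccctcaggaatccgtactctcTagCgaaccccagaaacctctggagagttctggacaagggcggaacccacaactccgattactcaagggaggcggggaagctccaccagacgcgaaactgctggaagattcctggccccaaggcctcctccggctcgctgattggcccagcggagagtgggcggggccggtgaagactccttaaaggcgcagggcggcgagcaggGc
Hspa1a: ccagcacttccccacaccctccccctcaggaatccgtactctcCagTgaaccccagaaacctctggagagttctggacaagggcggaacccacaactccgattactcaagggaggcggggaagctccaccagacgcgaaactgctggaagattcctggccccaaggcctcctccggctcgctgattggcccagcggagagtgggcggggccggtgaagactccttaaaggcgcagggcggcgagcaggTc
Capitals mark the 3 positions at which the windows differ, so 98.8% of the 250 bases are identical. In the transcripts, 49.9% of the 2704 windows of 100 bases in Hspa1b also occur in Hspa1a, and the split of reads between the genes is uncertain. The heat shock element, here GAA, any 2 bases, TTC, any 2 bases and GAA, was in neither window, and 0.4% of all windows held it on either strand. Only exact matches to this pattern were searched, so elements that depart from it would be missed. The absence of a match therefore does not show that the promoters lack heat shock elements.

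The wider list of immediate early and heat shock genes, which respond within minutes to handling, heat or receptor signals, had 33 of 34 genes tested, 0 called higher in IEL and 1 higher in LP, 0 separated toward IEL and 3 toward LP, and a median difference of -0.80, or -1.24 without replicate 2 of both layers. Without replicate 2, 21 of the 33 had both LP libraries above both IEL libraries, against 20.3% of all genes. Fos, a subunit of AP-1, was at 2318, 456 and 1789 FPKM in IEL replicates 1, 2 and 3 and at 4217, 125 and 6145 FPKM in LP. In IEL, Zfp36, which destabilises cytokine transcripts, measured 1404, 792 and 1317 FPKM, and in LP 7545, 388 and 7639.9 FPKM. Values of Junb, another AP-1 subunit, were 3953, 239.6 and 1977 FPKM in IEL and 2611, 229.6 and 4043 FPKM in LP. All 3 were high in replicates 1 and 3 of LP and lowest in PA LP replicate 2, and their layers overlapped. Collagenase digestion was a step of the LP preparation alone, and its part in these values cannot be told apart from the layer.

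Interferon response genes gave 1 call higher in LP and 0 higher in IEL among 31 tested of 37, with 1 separated toward IEL, 3 toward LP and a median difference of -1.70, 2 members having passed the filter through LP alone. Iigp1, an immunity-related GTPase induced by interferon-γ, reached 0.1497, 0.0533 and 0.116 FPKM in the IEL libraries, against 539, 27.9 and 585 FPKM in the LP libraries. Every IEL library was below 0.2 FPKM, with a log2 difference of -7.56 ± 1.25 (SE) (adjusted p = 0.0252, limma). The IEL libraries gave 18.1, 0.036 and 21.8 FPKM of Irgm1, a GTPase of the same family, and the LP libraries 179, 45.5 and 189 FPKM. Rsad2, the antiviral protein viperin, was at 0.0572, 0 and 0 FPKM in IEL replicates 1, 2 and 3 and at 57.5, 30.9 and 6.16 FPKM in LP. Irgm1 and Rsad2 were separated toward LP without passing the test, at an adjusted p by limma of 0.22 and 0.064. Iigp1 and Rsad2 were the 2 members that had passed the filter through LP alone and so had to be separated. In IEL, Irf1, the interferon-responsive factor, measured 259.9, 106 and 84.8 FPKM, and in LP 1174, 107 and 1576 FPKM. Irf1 was highest in PA LP replicates 1 and 3, and replicate 2 hardly differed between layers. Without replicate 2, 22 of the 31 genes had both LP libraries above both IEL libraries, against 20.3% of all genes. Oas3, an antiviral sensor of double-stranded RNA, was the member separated toward IEL, at 4.10, 23.2 and 5.35 FPKM in IEL and 3.07, 0 and 0.0608 FPKM in LP.

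Ifitm2, an interferon-induced membrane protein that restricts virus entry and is on none of the lists, was abundant in both layers. Values of Ifitm2 were 186, 569.6 and 273 FPKM in IEL and 3211, 1068 and 3189.9 FPKM in LP. The LP values were all above the IEL values, the ratio of the means LP to IEL was 7.26, with a log2 difference of -2.85 ± 0.50 (SE) (adjusted p = 0.0298, limma). Its upstream sequence is shown because it held the interferon-stimulated response element, here GAAA, any 2 bases and GAAA, searched on both strands. The window is chr7:140955988-140956211 on the minus strand (RefSeq, GRCm38.p6), of which the 26 bases that GENCODE counts to the gene were left out, and the capitals mark the match, 46 to 37 bases before the RefSeq start.
Ifitm2: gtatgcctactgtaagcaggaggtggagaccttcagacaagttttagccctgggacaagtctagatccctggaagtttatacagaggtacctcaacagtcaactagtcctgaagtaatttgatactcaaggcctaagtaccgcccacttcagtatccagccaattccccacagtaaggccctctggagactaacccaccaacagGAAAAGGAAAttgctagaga
The element was in 3.04% of 27025 promoter windows, and of the 6 genes called higher in LP that had a window Ifitm2 was the 1 that held it. Of the 14 windows of genes called higher in IEL, 1 held it, that of Alpi. No reading follows from such small numbers.

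Paneth cell genes, which encode the antimicrobial peptides of the crypt base, lay on the LP side with no call. Of 20 listed genes 9 were tested, 0 were separated toward IEL and 5 toward LP, 1 of them having passed through LP alone, and the median of -3.81 was the lowest of all lists. Lyz1, the Paneth lysozyme, reached 61.4, 157 and 47.9 FPKM in the IEL libraries, against 165, 603 and 637 FPKM in the LP libraries. Levels of Itln1, intelectin, came to 7.36, 12.7 and 5.42 FPKM in IEL and to 39.4, 358 and 257 FPKM in LP. Pla2g2a, a secreted phospholipase that kills bacteria, was at 21.6, 0 and 0.139 FPKM in IEL replicates 1, 2 and 3 and at 45.9, 252 and 364 FPKM in LP. PA LP replicates 2 and 3 held the highest values of each, and no LP library fell below an IEL library. The adjusted p-values by limma were 0.37 for Lyz1, 0.21 for Itln1 and 0.14 for Pla2g2a. In IEL, Defa24, an α-defensin, measured 148, 0.552 and 1.496 FPKM, and in LP 132, 1988 and 2397 FPKM. The layers overlapped for Defa24 through PA IEL replicate 1, and α-defensins are a family of near-identical genes, so their counts are uncertain. The Paneth sum was 83.4 to 324.0 FPKM in IEL and 449.8 to 4190.4 FPKM in LP.

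Of 6 epithelial defence genes tested, 5 had a higher mean log2 level in IEL and 1, Lcn2, in LP. Values of Reg1, a lectin of the regenerating family, were 23.7, 137 and 4879 FPKM in IEL and 0.278, 0.325 and 0.489 FPKM in LP. Reg3g, a lectin that kills Gram-positive bacteria, reached 327, 2.44 and 530.3 FPKM in the IEL libraries, against 25.2, 0.644 and 26.0 FPKM in the LP libraries. For Lcn2, lipocalin, which withholds iron from bacteria, the 3 IEL libraries held 0, 0.113 and 8.32 FPKM and the LP libraries 14.6, 90.9 and 233 FPKM. Reg1 passed the filter through IEL alone and so had to be separated (adjusted p = 0.14, limma). Lcn2 was separated toward LP (adjusted p = 0.22, limma), and Reg3g overlapped. The 6 genes tested of 18 had a median of 3.03, or 4.70 without replicate 2 of both layers, and 0 calls. Goblet cell genes here covered mucus components and other secreted products. They had a median of -0.54 over 12 tested genes of 18, 2 separated toward IEL and 0 toward LP. Guca2b was their 1 call, and Klk1, a kallikrein protease, was the other separated member, at 255, 33.8 and 56.7 FPKM in IEL and 11.1, 0.137 and 0.137 FPKM in LP (adjusted p = 0.14, limma). The goblet median was 1.52 without replicate 2 of both layers, 0.81 without PA IEL replicate 2 and 0.07 without PA LP replicate 2. Stem and crypt genes had a median of -1.21 over 8 genes with 0 calls, 1 having passed through LP alone. Olfm4, a crypt base marker, was the gene that had passed through LP alone and so had to be separated toward LP. It was at 0.143, 0 and 0.220 FPKM in IEL and 22.0, 107 and 6.32 FPKM in LP (adjusted p = 0.46, limma). Rnf43, which dampens Wnt signals, was the other gene separated toward LP, at 2.27, 0.0177 and 0.865 FPKM in IEL and 5.61, 54.4 and 2.34 FPKM in LP (adjusted p = 0.49, limma).

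**Figure D4:**
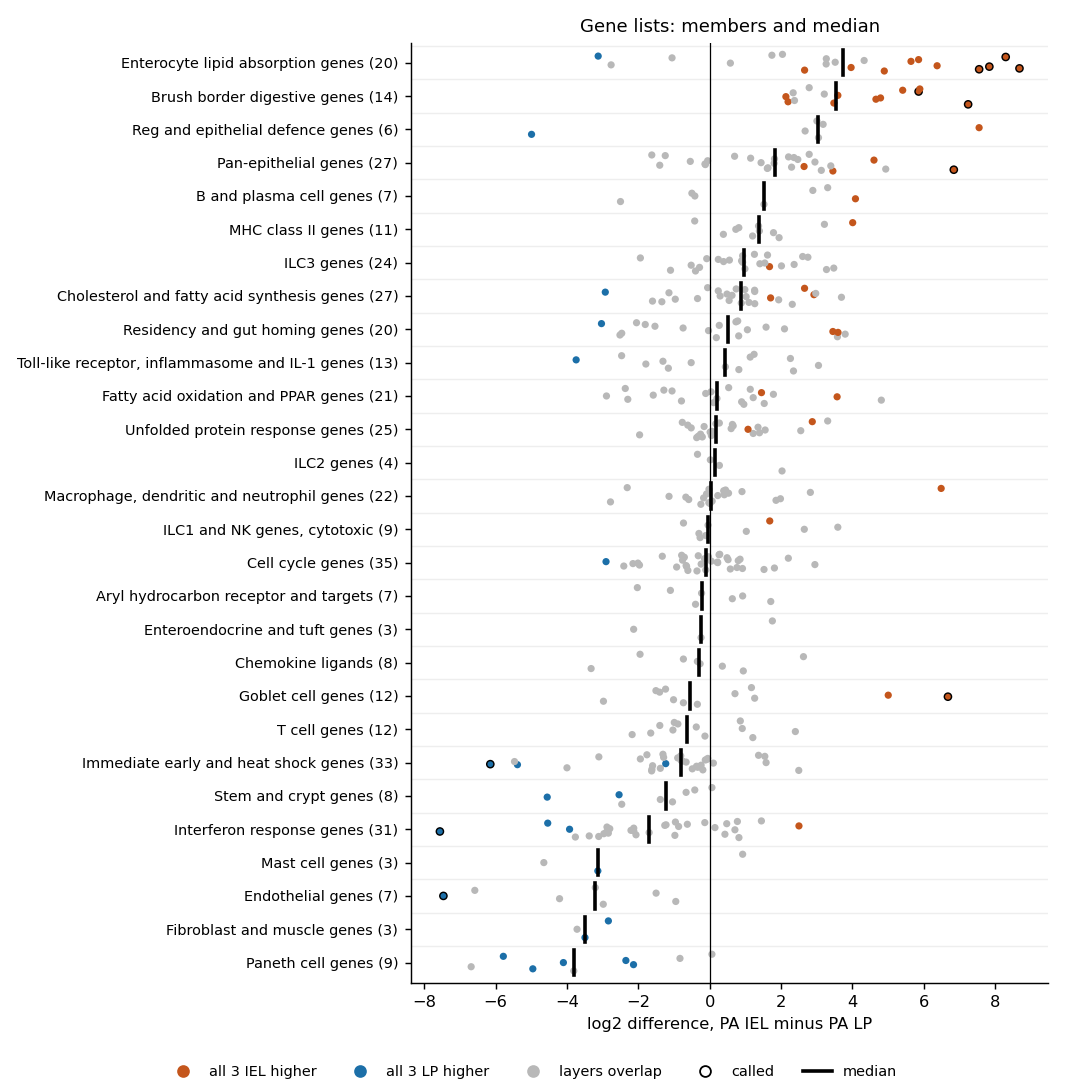
Log2 difference, PA IEL minus PA LP, of each tested member of the 28 lists with at least 3 tested genes, the number tested in brackets and a bar at the median. Orange and blue members have layers that do not overlap, and black rings mark called genes. Enterocyte and brush border lists lie to the right, with medians of 3.74 and 3.54, and Paneth, fibroblast and endothelial lists to the left, with medians of -3.81, -3.50 and -3.21.

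Genes of ILC3s themselves gave 0 calls in either direction among the 24 tested of 34. The median difference was 0.95, or 1.75 without replicate 2 of both layers, and 1 gene was separated toward IEL and 0 toward LP. Without replicate 2, 11 of the 24 had both IEL libraries above both LP libraries, against 21.6% of all genes. Id2, the factor that all innate lymphoid cells need, was at 749.6, 326 and 586 FPKM in IEL replicates 1, 2 and 3 and at 190.0, 95.2 and 239.6 FPKM in LP. Id2 was the separated gene, 3.17-fold higher by the means in PA IEL, and a log2 difference of 1.68 ± 0.50 (SE) did not pass (adjusted p = 0.23, limma). In IEL, Kit, the stem cell factor receptor, measured 93.8, 0.0586 and 29.6 FPKM, and in LP 17.9, 3.42 and 4.41 FPKM. Values of Cxcr6, a chemokine receptor of tissue ILCs, were 269.6, 0 and 253 FPKM in IEL and 0, 0 and 48.9 FPKM in LP. Ltb, lymphotoxin β, which ILC3s use to organise lymphoid tissue, reached 569, 0.082 and 137 FPKM in the IEL libraries, against 74.0, 0.103 and 160.2 FPKM in the LP libraries. Each had its highest value in PA IEL replicate 1 and its IEL replicate 2 near 0, and the layers overlapped.

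Lymphocyte residency and gut homing genes had a median of 0.50 over 20 tested of 28, with 0 calls, 2 separated toward IEL and 1 toward LP. The IEL libraries gave 189, 103 and 92.9 FPKM of Cd69, which retains lymphocytes in tissue, and the LP libraries 15.99, 0 and 60.9 FPKM. Cdh1, E-cadherin, the epithelial ligand of the intraepithelial lymphocyte integrin, was at 90.6, 77.0 and 51.5 FPKM in IEL replicates 1, 2 and 3 and at 22.6, 1.65 and 3.59 FPKM in LP. In IEL, Klf2, the factor that drives lymphocyte egress and is also made by endothelium, measured 24.4, 57.1 and 34.6 FPKM, and in LP 452, 64.2 and 975 FPKM. Cd69 and Cdh1 were higher in each IEL library than in any LP library and Klf2 lower, without passing (adjusted p = 0.50, 0.17 and 0.19, limma).

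Among other leukocyte lists, T cell genes had a median of -0.64 over 12 tested of 24 and 0 calls, and this median was -1.07 without replicate 2 of both layers, 0.36 without PA IEL replicate 2 and 0.43 without PA LP replicate 3. Cd3e and Cd3d, invariant chains of the T cell receptor, were listed at 0 in all 3 IEL libraries. In LP, Cd3e was at 13.6, 0 and 26.1 FPKM and Cd3d at 0, 0 and 26.1 FPKM. Cd3g, a further invariant chain, was at 0, 0 and 11.1 FPKM in IEL and 10.3, 0.112 and 87.8 FPKM in LP. The T cell sum was 104 to 443 FPKM in IEL and 44.3 to 925 FPKM in LP. Macrophage, dendritic and neutrophil genes had a median of 0.04 over 22 tested of 26 and 0 calls, with no stable sign, since it was 0.26 without replicate 2 of both layers, -0.37 without PA IEL replicate 2, -0.42 without PA LP replicate 3 and -0.06 with libraries scaled on the upper quartile. Values of Lyz2, the myeloid lysozyme, were 334, 1725 and 405 FPKM in IEL and 808, 1917 and 181 FPKM in LP. Siglech, a receptor of plasmacytoid dendritic cells, reached 294, 414 and 143 FPKM in the IEL libraries, against 0.142, 0.0833 and 18.7 FPKM in the LP libraries. Lyz2 was highest in replicate 2 of both layers, and Siglech was separated toward IEL (adjusted p = 0.12, limma). The myeloid sum was 1868 to 7814 FPKM in IEL and 1507 to 7359 FPKM in LP. B and plasma cell genes had a median of 1.52 over 7 tested of 20, which was 0.30 without replicate 2 of both layers and -0.21 without PA LP replicate 1. Levels of Igj, the joining chain of secreted IgA, came to 17871, 1.19 and 1.42 FPKM in IEL and to 11.1, 1.44 and 7591 FPKM in LP. It was high in 1 library of each layer and below 12 FPKM in the others, and the list sum ran from 381.9 to 20123 FPKM in IEL and from 148.1 to 8582 FPKM in LP. Cytotoxic genes of NK cells and ILC1s had a median of -0.05 over 9 tested of 25. Tyrobp, a signalling adaptor, was the member separated toward IEL, at 1029, 3144 and 573 FPKM in IEL and 199, 555 and 504 FPKM in LP (adjusted p = 0.45, limma), and this median turned to 0.15 when libraries were scaled on leukocyte genes and to 1.27 without replicate 2 of both layers. Mast cell genes had a median of -3.14 over 3 tested of 12, or -1.92 without replicate 2 of both layers, Gata2 being separated toward LP at 14.6, 0.120 and 8.79 FPKM in IEL and 38.5, 52.3 and 54.0 FPKM in LP, and ILC2 genes 0.14 over 4 tested of 14, with 0 calls in either. The ILC2 median was -0.25 without PA IEL replicate 1 and -0.44 without PA LP replicate 2.

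Antigen presentation genes of MHC class II had a median difference of 1.37 over 11 tested of 12, with 0 calls and 1 gene, H2-Oa, separated toward IEL. Cd74, the invariant chain, was at 5027, 5203 and 4248 FPKM in IEL replicates 1, 2 and 3 and at 419, 874 and 5307 FPKM in LP. In IEL, H2-Ab1, a β chain, measured 1071, 1199 and 1268 FPKM, and in LP 124, 381 and 1886 FPKM. The IEL libraries were close together, and in LP replicates 1 and 2 were low and replicate 3 high.

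Lipid metabolism, of interest in mice nursed on milk rich in palmitic acid, was described by 2 lists. Fatty acid oxidation and PPAR genes had a median of 0.20 over 21 tested of 27, 0 calls, 2 separated toward IEL and 0 toward LP, and the median was 0.85 without replicate 2 of both layers and -0.14 without PA IEL replicate 3. Values of Hadhb, a subunit of the mitochondrial trifunctional protein, were 154, 211 and 296 FPKM in IEL and 75.6, 77.5 and 78.6 FPKM in LP. Etfdh, which passes electrons from fatty acid oxidation to ubiquinone, reached 52.7, 97.2 and 124 FPKM in the IEL libraries, against 17.3, 0 and 20.5 FPKM in the LP libraries. These were the separated genes, at an adjusted p by limma of 0.41 and 0.25. For Fabp4, the fatty acid carrier of adipocytes, macrophages and capillary endothelium, the 3 IEL libraries held 83.4, 221 and 82.0 FPKM and the LP libraries 1281, 212 and 2337 FPKM. Among the PA libraries, Fabp4 was over 1000 FPKM in LP replicates 1 and 3. Cholesterol and fatty acid synthesis genes had a median of 0.88 over 27 tested of 31, 0 calls, 3 separated toward IEL and 1 toward LP. Srebf1, the factor that drives lipid synthesis, was at 63.3, 142 and 27.0 FPKM in IEL replicates 1, 2 and 3 and at 17.4, 1.05 and 26.2 FPKM in LP. In IEL, Insig1, which holds that factor back when sterols are plentiful, measured 32.9, 185 and 63.1 FPKM, and in LP 31.9, 0 and 27.3 FPKM. Values of Fdft1, squalene synthase, were 33.3, 57.8 and 49.1 FPKM in IEL and 17.2, 8.17 and 16.4 FPKM in LP. All were higher in every IEL library, with adjusted p-values by limma of 0.45, 0.46 and 0.53, and Mvd, of the mevalonate pathway, was the member separated toward LP, at 10.9, 0 and 26.0 FPKM in IEL and 27.8, 117 and 40.6 FPKM in LP.

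Several lists stood near the median of all genes. The unfolded protein response had a median of 0.17 over 25 genes with 0 calls, 2 separated toward IEL and 0 toward LP, cell cycle genes -0.11 over 35 with 1 toward LP, Toll-like receptor, inflammasome and IL-1 genes 0.44 over 13 with 1 toward LP, chemokine ligands -0.31 over 8, and targets of the aryl hydrocarbon receptor -0.23 over 7. The sign of each of these medians changed when some single library was left out, the Toll-like receptor list for example to -0.96 without PA LP replicate 2. Without replicate 2 of both layers the Toll-like receptor list was at 0.68, chemokine ligands at -0.08 and the aryl hydrocarbon receptor list at 0.26. Myd88, the adaptor of Toll-like and IL-1 receptors, reached 33.1, 0.0429 and 61.1 FPKM in the IEL libraries, against 469, 66.0 and 168 FPKM in the LP libraries. Myd88 was the separated gene of its list (adjusted p = 0.30, limma). The IEL libraries gave 493, 394 and 350.5 FPKM of Herpud1, of endoplasmic reticulum-associated degradation, and the LP libraries 196, 111 and 331 FPKM. Syvn1, a ubiquitin ligase of the same pathway, was at 32.9, 146 and 17.8 FPKM in IEL replicates 1, 2 and 3 and at 13.2, 0 and 15.8 FPKM in LP. Both were separated toward IEL (adjusted p = 0.50 and 0.46, limma). Enteroendocrine and tuft genes had a median of -0.24 over 3 genes, or 0.39 without replicate 2 of both layers. Enteric glia and neuron genes had 1 tested gene and erythroid genes 2. Genes common to leukocytes, on which one alternative scaled the libraries, had a median of 0.07 over 29 tested of 30 and 0 calls.

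Below the threshold, the genes of LP with the smallest unadjusted p among separated genes at 10 FPKM or more were S100a11, Rsad2 and Gna14. In IEL, S100a11, a calcium-binding protein of the S100 family, measured 109.9, 251 and 155 FPKM, and in LP 663, 587 and 942 FPKM. Gna14, a G protein α subunit, was listed at 0 in all 3 IEL libraries and was at 37.7, 37.0 and 8.32 FPKM in LP. Like Rsad2, Gna14 had passed the filter through LP alone and so had to be separated. S100a11 had the closer replicates and a log2 difference of -2.13 ± 0.42 (SE) (adjusted p = 0.0522, limma), and it was called in 6 of 17 alternatives.

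The same contrast in ND mice used 6 other libraries. Their spread had entered the fit that called the PA milk genes, so the reading in ND is not fully independent of the choice of genes. In a fit of the 6 PA libraries alone, 9 of the 24 were still called. In ND, limma called 2 of the 9555 genes (0.0209%), Apoa1 higher in IEL and Madcam1 higher in LP, with 407 genes at an unadjusted p under 0.05. All 15 genes called higher in IEL in PA milk were higher in ND IEL, and for all 15 the 3 ND IEL libraries lay above the 3 ND LP libraries, which held for 10.6% of all genes. Of the 9 genes called higher in LP, 9 had the same sign and 7 were separated toward LP in ND, which held for 8.83% of all genes. Mlf1 and Postn were the exceptions. In ND, Mlf1 was at 0, 0 and 0 FPKM in IEL and 0, 0 and 0.318 FPKM in LP. In ND, Postn was at 0, 0 and 0 FPKM in IEL and 0, 0 and 3.06 FPKM in LP. Both were thus at or near 0 in ND LP, where PA LP held 5.94 to 59.4 FPKM of Mlf1 and 9.62 to 23.0 FPKM of Postn.

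In ND, Apoa4 was at 644, 10155 and 1512 FPKM in IEL and 0.939, 23.5 and 82.7 FPKM in LP. In ND, Rbp2 was at 1244, 6341 and 1919 FPKM in IEL and 51.7, 345 and 67.0 FPKM in LP. The ND IEL levels reached those of PA IEL, and in ND LP Rbp2 was above 50 FPKM in every library, where PA LP did not exceed 10.05 FPKM. In ND, Hspa1b was at 17.8, 12.2 and 14.1 FPKM in IEL and 412, 455 and 436 FPKM in LP. The ND LP libraries of Hspa1b were close to each other and near PA LP replicate 1. Over all genes, 148 of the 481 separated toward IEL in PA milk were also separated that way in ND, 30.8% of the former and 14.6% of the 1015 separated in ND. For LP they were 90 of 478, 18.8% of these and 10.7% of the 844 in ND, and 13 and 10 genes were separated the opposite way.

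**Figure D5:**
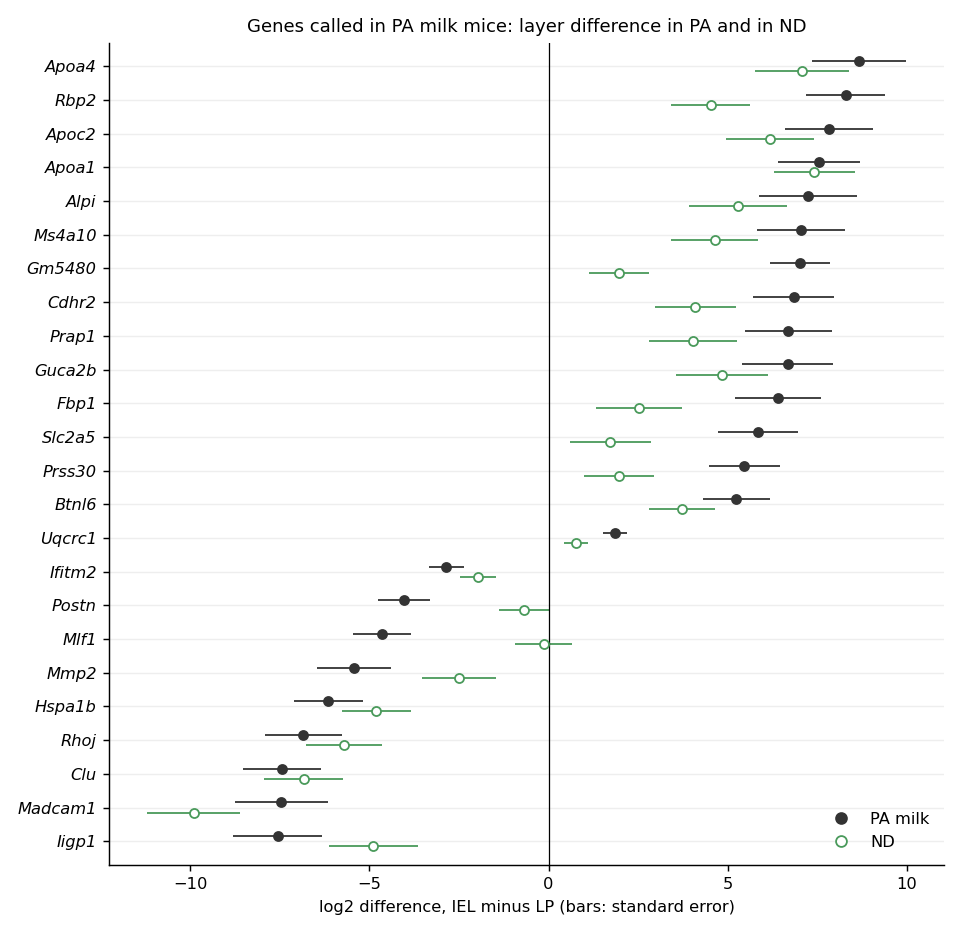
Layer difference, IEL minus LP, of the 24 genes called in PA milk, in PA milk (filled) and in ND (open), on the log2(FPKM + 1) scale with standard errors. The sign is the same in both diets for all 24, and Mlf1 and Postn lie near 0 in ND.

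Whether the layers differed otherwise in PA milk than in ND was tested by the difference of the 2 contrasts. Limma called 0 of the 9555 genes, with a smallest adjusted p of 0.9999, and 219 genes were at an unadjusted p under 0.05. Limma-voom on the count table also called 0. The difference was larger in PA milk for 15 of the 15 IEL genes and 8 of the 9 LP genes, but these genes had been chosen by their PA milk difference, so nothing is read from that. Gm5480 had a difference of differences of 5.06 ± 1.18 (SE) and Mlf1 a difference of differences of -4.52 ± 1.13 (SE), both at an adjusted p of 0.9999 by limma. Among lists, the medians in PA milk and ND were 3.74 and 4.06 for enterocyte lipid absorption, 3.54 and 3.45 for the brush border, -3.21 and -4.61 for endothelium, -3.81 and -1.37 for Paneth cells, -1.70 and -0.65 for the interferon response, 0.95 and -1.47 for ILC3 genes and 0.88 and -0.04 for cholesterol and fatty acid synthesis. Over all genes tested, 8.83% were separated toward LP in ND and 5% in PA milk. In ND 15 of the 33 immediate early and heat shock genes and 7 of the 7 endothelial genes were separated toward LP. In ND the Paneth list had 1 of 9 tested genes separated toward LP, close to the share of all genes, and the interferon list 9 of 31. The differences between diets in these medians were not tested.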

How the data were processed

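RNA of sorted ILC3s was amplified by PCR with a SMART-Seq v4 kit, which carries no molecular identifiers, and sequenced on an Illumina HiSeq. Per the labels, the authors aligned reads to the mouse genome mm10 with TopHat2 2.1.1, Bowtie2 2.2.8.0 and SAMtools 0.1.18 and obtained gene levels with Cufflinks 2.2.1 and Cuffdiff 2.2.1. The authors deposited a table of FPKM values for 23284 genes in 12 libraries. The second deposited table holds counts that had been scaled between libraries and rounded, and it was treated as a score: among 2072 well-covered genes, 89.2% had a ratio to FPKM that was equal between libraries within 1%. It held no raw counts, so a count model, planned as an alternative, could not be used, and limma-voom served in its place. All columns of both tables were mapped to a library by name.

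Genes at 1 FPKM or more in at least 3 of the 6 PA libraries were tested on log2(FPKM + 1) with limma 3.58.1 in R 4.3.3, with an intensity trend, in 1 fit of 4 group means over 12 libraries, and p-values of all 9555 genes were adjusted together after Benjamini and Hochberg, with 0.05 as the threshold. Tests are two-sided. An exact permutation test of 3 against 3 libraries cannot go below p = 0.1, so no single-gene permutation test is given. The code was tested on simulated data. Fitted differences of genes near 0 in a layer depend on the value of 1 added before the logarithm. Python 3.11.15 with pandas 2.3.3 and matplotlib 3.10.9 handled tables and figures. Named genes were those called, up to 12 per direction with the smallest p among genes whose layers do not overlap and whose higher layer averages at least 10 FPKM, and, per list, members with the highest levels, called members and members whose layers do not overlap. Sort and lineage markers were added by role, and genes with printed sequences after their values were seen. The members and gene lists were chosen with earlier results of these data known. Replicate numbers were not used as pairs. Scaling, filter, pseudocount, weights and left-out libraries were varied. Values of 2 genes are not reported here.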

Additional observations from a re-analysis of the deposited data

Results flagged for a closer look

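Id2, the factor required by all innate lymphoid cells, was picked out because the layer difference pointed in opposite directions in the 2 diets. In PA milk the IEL libraries held 749.6, 326 and 586 FPKM and the LP libraries 190.0, 95.2 and 239.6 FPKM. In ND the IEL libraries held 110.2, 217 and 273 FPKM and the LP libraries 539, 455 and 546 FPKM, so that neither diet's layers overlapped and the order was reversed. The difference of the differences was 3.12 ± 0.71 (SE) on the log2 scale, with an unadjusted p of 0.000525 and an adjusted p of 0.9999 by limma over 9555 genes, which does not pass the threshold.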

How the results depend on the processing

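All 24 genes called in PA milk kept their direction in each alternative that tested them, 8 of them being tested under the filter that asks for 5 of 6 libraries, but the number of calls was unstable, and the medians of 13 of the 28 lists with at least 3 tested genes changed sign in at least 1 alternative. Against 24, it was 10 with libraries scaled on leukocyte genes, 3 with no filter on low values, 5 with that stricter filter, 10 in a fit of the 6 PA libraries alone, 60 with sample quality weights, 11 with limma-voom and 122 without replicate 2 of both PA groups, and it ran from 1 to 71 when a single library was left out. The count was within 1.5 times the main one for the upper quartile scaling (21), the filter over 12 libraries (18), a pseudocount of 0.1 (20) and the removal of PA IEL replicates 1 (26) or 2 (21). Against 2 calls in ND, there were 1 with the upper quartile scaling, 0 with no filter, 4 with the filter over 12 libraries, 0 with the stricter filter, 1 with the smaller pseudocount, 36 in a fit of the 6 ND libraries alone, 403 with quality weights, 0 with limma-voom and 0 when any 1 library was left out. Across genes, deviations from the group mean were nearly uncorrelated between same-numbered libraries (-0.0087 to 0.089 in PA milk and -0.013 to 0.0046 in ND). PA milk replicate 2, at 0.089, was the 1 of 6 numbers that was its own best partner. Replicate 2 of both PA layers also held fewer genes at 1 FPKM or more than the other PA libraries. The samples were treated as sharing only a number, although the labels do not say whether they share mice. With a replicate block, the calls were 4 in PA milk, 3 of them among the 24, 0 in ND and 1 for the difference between diets. Every other alternative gave 0 calls for that difference, for which a fit of 6 libraries gives no value. The cause of these changes was not tested. Tests on raw counts were not run, since the table holds scaled values. Gm5480 was called in 14 of 16 alternatives and Fbp1 in 3 of 16.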

Other observations

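Snord35b, a small nucleolar RNA gene chosen after its values were seen, did not pass the threshold (adjusted p = 0.14, limma). It passed the filter through IEL alone, so its layers had to differ, and no fold is given. PA IEL held 2979.9, 7634 and 2299.7 FPKM, and every PA LP library had it listed at 0. In ND replicate 2 of each layer was the library with a value, 1818 FPKM in IEL and 2759 FPKM in LP. Such short transcripts are worth a high FPKM per read.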
